A study of Mus musculus with 8 samples.

Results

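The integrins, laminins, type IV collagens and their partners in the basement membrane were described in mouse cells that lacked the transcription factor TFAP2C. The genes were chosen by symbol: every integrin α or β subunit, laminin chain or type IV collagen chain that the platform annotation names, together with fibronectin (Fn1), nidogen 1 and 2 (Nid1, Nid2), perlecan (Hspg2) and vitronectin (Vtn). They number 46 of the 18193 genes measured, and comprise 16 integrin α, 9 integrin β, 10 laminin and 6 type IV collagen genes and 5 other matrix genes.

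The study compared Tfap2c-/- and control (ctrl) embryonic stem cells (ESCs) and the primordial germ cell-like cells (PGCLCs) derived from them. There were 2 arrays each of Tfap2c-/- PGCLCs, ctrl PGCLCs, Tfap2c-/- ESCs and ctrl ESCs, 8 in all. All groups carried the Blimp1mVenus reporter. The ctrl cells were the parental Tfap2c flox/flox lines, and the Tfap2c-/- cells came from them by transient transfection of a pGK-Cre plasmid, so the knockout preceded differentiation. PGCLCs were made through an epiblast-like stage with BMP4, BMP8b, SCF, LIF and EGF, and were sorted for reporter fluorescence, so they represent only the cells that had switched the reporter on. The study used a pair of ESC lines and ran arrays on ctrl and Tfap2c-/- cells of both, so the spread within a group may include line differences. The labels do not say which array came from which line, so p-values here measure the spread between these arrays.

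A basement membrane is a thin sheet of extracellular matrix. Laminins, each a trimer of an α, a β and a γ chain, polymerise into one network, type IV collagen forms another, and nidogens and perlecan bridge them. Cells hold on to the sheet through integrins, which are αβ heterodimers in the plasma membrane that recruit talin and kindlin inside the cell. In the mouse embryo, primordial germ cells leave the epiblast, migrate over matrix rich in fibronectin and laminin, and need integrins that contain the β1 subunit to reach the gonads.

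Values are log2 expression levels as deposited. Where several probe sets name a gene, the brightest of them on average was used. A gene is called dim when none of the 4 group means exceeded 5. Because one probe set binds better than another, levels are compared between groups and not between genes. Differences are between group means, on the log2 scale, with their standard error (SE), from limma with p-values adjusted by Benjamini-Hochberg over all 18193 genes; a call means an adjusted p under 0.05. In RNA of a whole cell population, fewer cells of a type and less RNA per cell cannot be told apart.

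The array medians lay between 3.47 and 3.55. The second ctrl PGCLC array stood apart in its control probe sets, with a mean poly-A spike-in level of 7.25 against 5.05 to 6.81 on the other 7 arrays, and a 3′ minus 5′ difference of the Gapdh controls of 0.95 against 0.31 to 0.52. Tfap2c read 8.52 and 8.85 in Tfap2c-/- PGCLCs against 9.84 and 10.29 in ctrl PGCLCs, and 7.28 and 6.47 in Tfap2c-/- ESCs against 7.88 and 9.14 in ctrl ESCs (differences -1.38 and -1.63, SE 0.42 each, neither called by limma). Whether its probe set lies in the deleted part was not tested, so the remaining signal does not check the labels. All 8 ESC markers exceeded 5 in every group, and so did all 7 measured germ cell markers in both PGCLC groups. The germ cell list includes Tfap2c itself. Summed over it, the linear level was 1280 to 1390 in Tfap2c-/- PGCLCs against 3830 to 4970 in ctrl PGCLCs. All markers of primitive and visceral endoderm (12), mesoderm (8 measured) and fibroblasts (9) were dim. Other lists were not all dim. Of 4 measured trophoblast markers, 2 exceeded 5 by mean in ctrl PGCLCs and 1 in each other group. Of 4 neural markers, 3 did in Tfap2c-/- PGCLCs and 2 in each other group. No marker of these 2 lists was called between the PGCLC groups, and 1 neural marker was called higher in Tfap2c-/- PGCLCs than in Tfap2c-/- ESCs.

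Of the 46 genes, 18 had a group mean above 5 and 28 were dim. Among the integrins, Itga3, Itga6, Itga9, Itgae, Itgav, Itgb1, Itgb5 and Itgb7 were above this level in at least one group. Itga6 and Itgb1 encode the subunits of a laminin receptor, and Itgav and Itgb5 those of a vitronectin receptor. Of the laminin chains Lama1, Lama5, Lamb1, Lamb2 and Lamc1 were above it, which include the α1, β1 and γ1 chains of the laminin trimer of the early embryo. Col4a1, Fn1, Hspg2, Nid1 and Nid2 were above it too. The dim genes included the epithelial pairing partner of Itga6 (Itgb4, 3.14 to 3.39 over the 8 arrays), some leukocyte subunits (Itgal, Itgam, Itgax and Itgb2, 1.62 to 4.68 in the lowest and highest of all their values), 5 of the 6 type IV collagens, and Vtn (2.33 to 2.86). Itgae and Itgb7, also leukocyte subunits, were not dim, with highest group means of 5.03 in Tfap2c-/- ESCs and 5.39 in ctrl ESCs.

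TFAP2C belongs to the AP-2 family, which binds palindromes of the form GCCNNNGGC. The promoters of the genes were therefore read for these letters, in windows of 250 bases before and 50 bases after the RefSeq start site (GRCm38.p6). The pattern is its own reverse complement in form, so 1 strand covers both. Windows were given for 31 of the 46 genes, and 6 of these genes (19.4%) held a match, against 18.5% of all 27025 genes with windows. The matches lay before the start sites of Col4a1, Col4a2, Hspg2, Itga2, Itga4 and Itga8, none of which was called in any comparison. Of the 6 genes called in any comparison described here, 3 had windows, Nid1, Itga1 and Itgb5, and none of these held a match. Such a match is a description of letters, and no binding was measured. The 250 bases upstream of the start sites of these 3 genes are shown first, since they are the called genes with windows. They lie at chr13:13437352-13437601 (plus strand) for Nid1, chr13:115101965-115102214 (minus strand) for Itga1 and chr16:33829415-33829664 (plus strand) for Itgb5. The 29 bases around the match follow for the 3 genes with a match that are basement membrane components, with the match in capitals. They lie at chr8:11313045-11313073 (minus strand) for Col4a1, chr8:11312598-11312626 (plus strand) for Col4a2 and chr4:137468657-137468685 (plus strand) for Hspg2.
Nid1: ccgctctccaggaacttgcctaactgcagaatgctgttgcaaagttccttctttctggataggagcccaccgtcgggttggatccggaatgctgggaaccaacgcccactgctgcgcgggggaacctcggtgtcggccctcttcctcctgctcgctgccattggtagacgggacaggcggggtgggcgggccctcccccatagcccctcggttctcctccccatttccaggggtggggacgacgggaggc
Itga1: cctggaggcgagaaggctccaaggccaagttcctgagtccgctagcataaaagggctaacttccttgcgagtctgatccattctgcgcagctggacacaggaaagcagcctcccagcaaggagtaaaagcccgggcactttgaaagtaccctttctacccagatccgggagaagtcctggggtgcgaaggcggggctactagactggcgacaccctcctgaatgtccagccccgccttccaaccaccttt
Itgb5: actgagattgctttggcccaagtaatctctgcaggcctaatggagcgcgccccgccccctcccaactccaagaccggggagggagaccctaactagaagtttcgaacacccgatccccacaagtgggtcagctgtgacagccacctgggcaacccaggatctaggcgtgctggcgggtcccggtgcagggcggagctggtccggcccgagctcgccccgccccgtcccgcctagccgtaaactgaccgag
Col4a1: agaagcgttgGCCCGTGGCacaccggcgg
Col4a2: atggtggcgcGCCCGGGGCggcaggggac
Hspg2: tggaggtgggGCCTAGGGCtcctgaactt
Col4a1 and Col4a2 stand head to head, with start sites 21 bases apart, so their windows overlap by 78 bases and each match lies within the transcribed side of the neighbouring gene.

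**Figure D1:**
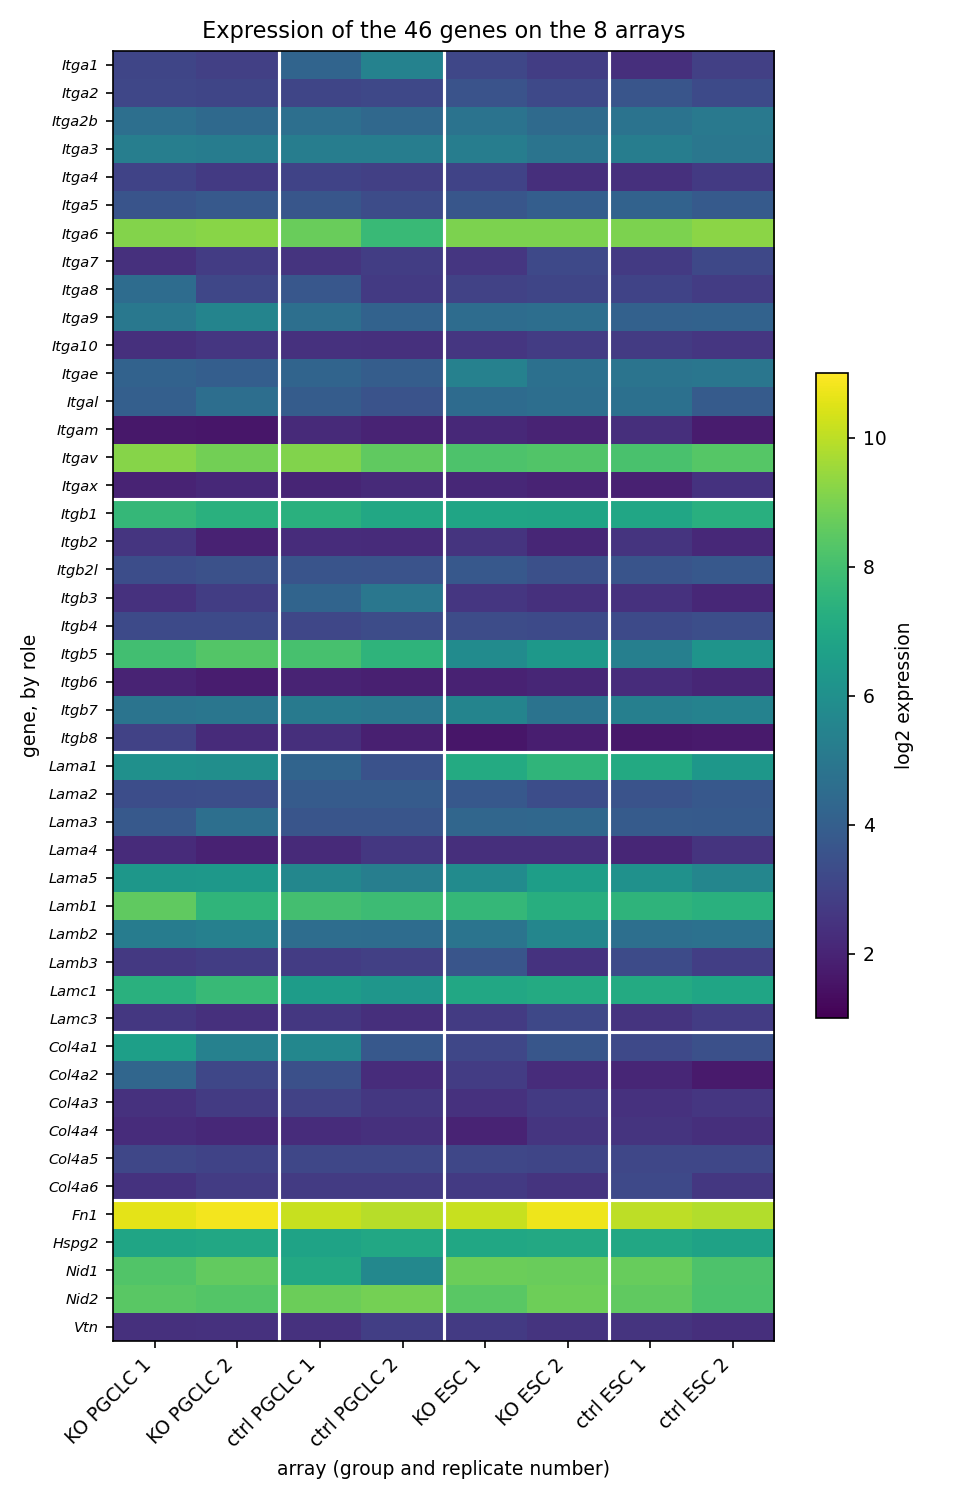
Log2 expression of the 46 genes (rows, by role: integrin α, integrin β, laminin, type IV collagen, other matrix genes) on the 8 arrays (columns, by group and replicate number; KO is Tfap2c-/-). Colour runs from 1 (dark) to 11 (yellow): 28 genes have no group mean above 5, and Lama1 and Nid1 darken on the ctrl PGCLC arrays.

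Between Tfap2c-/- and ctrl PGCLCs 5 of the 46 genes (10.9%) were called. The laminin chains Lama1 and Lamc1 and the laminin-binding linker Nid1 were higher in Tfap2c-/- PGCLCs, and the integrin subunits Itga1 and Itgb3 were lower. Across all genes tested, 3.09% were called, 1.29% higher and 1.8% lower. At an unadjusted p under 0.05 there were 13 of the 46 genes (28.3%), against 15.7% of all genes, and 4 of the 46 differed by more than 1.5, against 1.95% of all. The median difference of the 46 genes, 28 of them dim, was 0.02, and that of all genes was -0.04. For the 18 with a group mean above 5 it was 0.52, and for all 9204 such genes -0.02. A gene could enter these through any group, including the one where it was higher.

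Lama1 encodes the α1 chain of laminin, through which the trimer attaches to cell-surface receptors. Its level was 6.03 and 5.95 in Tfap2c-/- PGCLCs against 4.24 and 3.53 in ctrl PGCLCs. Both Tfap2c-/- arrays lay above both ctrl arrays, and the ctrl arrays lay under the level of 5. The difference was 2.11 (SE 0.33, limma adjusted p = 0.0188). Lama1 has 1 probe set on the array.

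Lamc1 encodes the γ1 chain, which joins Lama1 in the trimer and carries the nidogen-binding site. It read 7.34 and 7.74 in Tfap2c-/- PGCLCs against 6.54 and 6.25 in ctrl PGCLCs, with no overlap. The difference was 1.15 (SE 0.20, limma adjusted p = 0.0269), or 2.21-fold. The other probe set of Lamc1 differed by 0.42, in the same direction. The β1 chain of the same trimer, Lamb1, read 8.56 and 7.56 against 8.00 and 7.85, so the Tfap2c-/- arrays lay on either side of the ctrl arrays, and the difference was 0.13 (SE 0.30, limma adjusted p = 0.904).

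Nid1 encodes nidogen 1, which links the laminin network to type IV collagen. It read 8.28 and 8.60 in Tfap2c-/- PGCLCs against 7.04 and 5.65 in ctrl PGCLCs. The groups did not overlap, and the lower ctrl value was that of the second array. The difference was 2.10 (SE 0.40, limma adjusted p = 0.0365), or 4.27-fold, and the other 2 probe sets of Nid1 differed by 0.97 and 1.02. Its paralogue Nid2 read 8.46 and 8.31 in Tfap2c-/- PGCLCs against 8.76 and 8.91 in ctrl PGCLCs. Nid2 thus lay the other way round, by -0.45 (SE 0.19), and was not called (limma adjusted p = 0.305).

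Itgb3 encodes the β3 subunit of receptors for vitronectin and fibronectin. It read 2.41 and 2.83 in Tfap2c-/- PGCLCs against 4.21 and 4.96 in ctrl PGCLCs. Both ctrl arrays lay above both Tfap2c-/- arrays, at levels that are dim in every group. The difference was -1.97 (SE 0.27, limma adjusted p = 0.0132), with the Tfap2c-/- values under the array medians of 3.47 to 3.55, and the dimmer probe set of Itgb3 differed by -0.26. Its α partners were Itgav, which differed by 0.19 (SE 0.21, limma adjusted p = 0.75), and the platelet subunit Itga2b, which was dim at 4.38 to 5.03 over the 8 arrays.

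Itga1 encodes the α1 subunit, which pairs with β1 to bind collagen. It read 3.09 and 2.90 in Tfap2c-/- PGCLCs against 4.22 and 5.42 in ctrl PGCLCs. The ctrl arrays were higher without overlap, and only the second of them exceeded 5. The difference was -1.83 (SE 0.38, limma adjusted p = 0.0479), again with Tfap2c-/- values under the array medians, and the other probe set of Itga1, dimmer still, differed by -0.16. Its partner Itgb1 read 7.67 and 7.35 against 7.35 and 7.01, a difference of 0.33 (SE 0.21, limma adjusted p = 0.522).

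**Figure D2:**
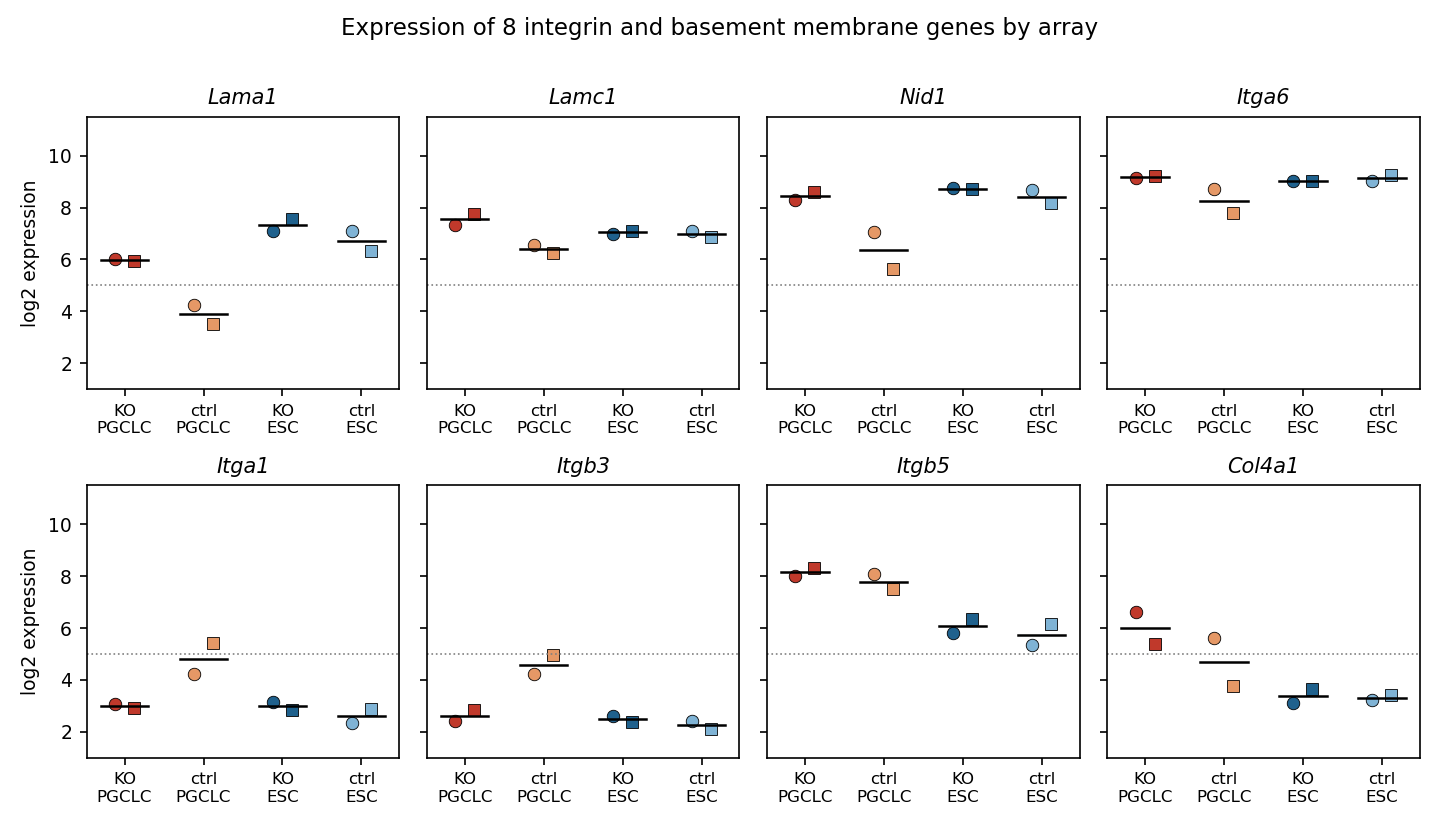
Log2 expression of 8 genes on each array by group (circles: replicate 1; squares: replicate 2; bars: group means; dotted line: the level of 5; KO is Tfap2c-/-). For Lama1, Lamc1 and Nid1 the Tfap2c-/- PGCLC arrays lie above the ctrl PGCLC arrays, for Itga1 and Itgb3 below them, and Itgb5 separates PGCLCs from ESCs.

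The remaining genes were not called. The groups did not overlap in 11 of the 46 genes with Tfap2c-/- PGCLCs higher, against 19.5% of all genes, and in 8 with them lower, against 27.9%. The uncalled genes named next were picked after their values were seen. Itga6, the laminin-binding α6 subunit, read 9.13 and 9.21 in Tfap2c-/- PGCLCs against 8.70 and 7.78 in ctrl PGCLCs, a difference of 0.93 (SE 0.27, limma adjusted p = 0.126) with 1.19 on its other probe set. Itga9, the α9 subunit of a receptor for tenascin and fibronectin, differed by 0.83 (SE 0.24, limma adjusted p = 0.13). Lama5, the α5 chain that later replaces α1 in many tissues, read 6.29 and 6.33 against 5.64 and 5.28, a difference of 0.85 (SE 0.29, limma adjusted p = 0.196). Fn1 read 10.60 and 10.82 against 10.15 and 9.91, a difference of 0.68 (SE 0.20, limma adjusted p = 0.133). In these genes both Tfap2c-/- arrays were above both ctrl arrays. Lamb2, the β2 chain, differed by 0.72 (SE 0.25, limma adjusted p = 0.211), and Hspg2, perlecan, by 0.03 on the probe set used and by 1.33 on its other one, so perlecan has no settled difference here.

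Col4a1 and Col4a2 encode the type IV collagen chains of most basement membranes. Col4a1 read 6.63 and 5.38 in Tfap2c-/- PGCLCs against 5.63 and 3.75 in ctrl PGCLCs, so the groups overlapped and the difference of 1.31 (SE 0.62) was not called (limma adjusted p = 0.364). Col4a2, which joins it in the same collagen trimer, read 4.29 and 3.13 against 3.44 and 2.26. In both genes and both groups the first array was the higher one. Markers of primitive and visceral endoderm, all dim, summed to 114 to 194 in Tfap2c-/- PGCLCs against 129 to 190 in ctrl PGCLCs, and in 8 of the 12 the first array was the higher one in both PGCLC groups. The 9 fibroblast markers, also dim by group mean, summed to 88.1 to 186 in Tfap2c-/- PGCLCs against 72.1 to 162 in ctrl PGCLCs. In 6 of them the array order was the same, as in 31% of all genes. On the first Tfap2c-/- and first ctrl PGCLC arrays Pdgfrb read 5.74 and 5.81, Col1a1 5.27 and 5.06, and Col1a2 5.69 and 4.83. The other fibroblast markers stayed under 5 on all arrays. The part of both cell types in the collagen values was not tested.

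**Figure D3:**
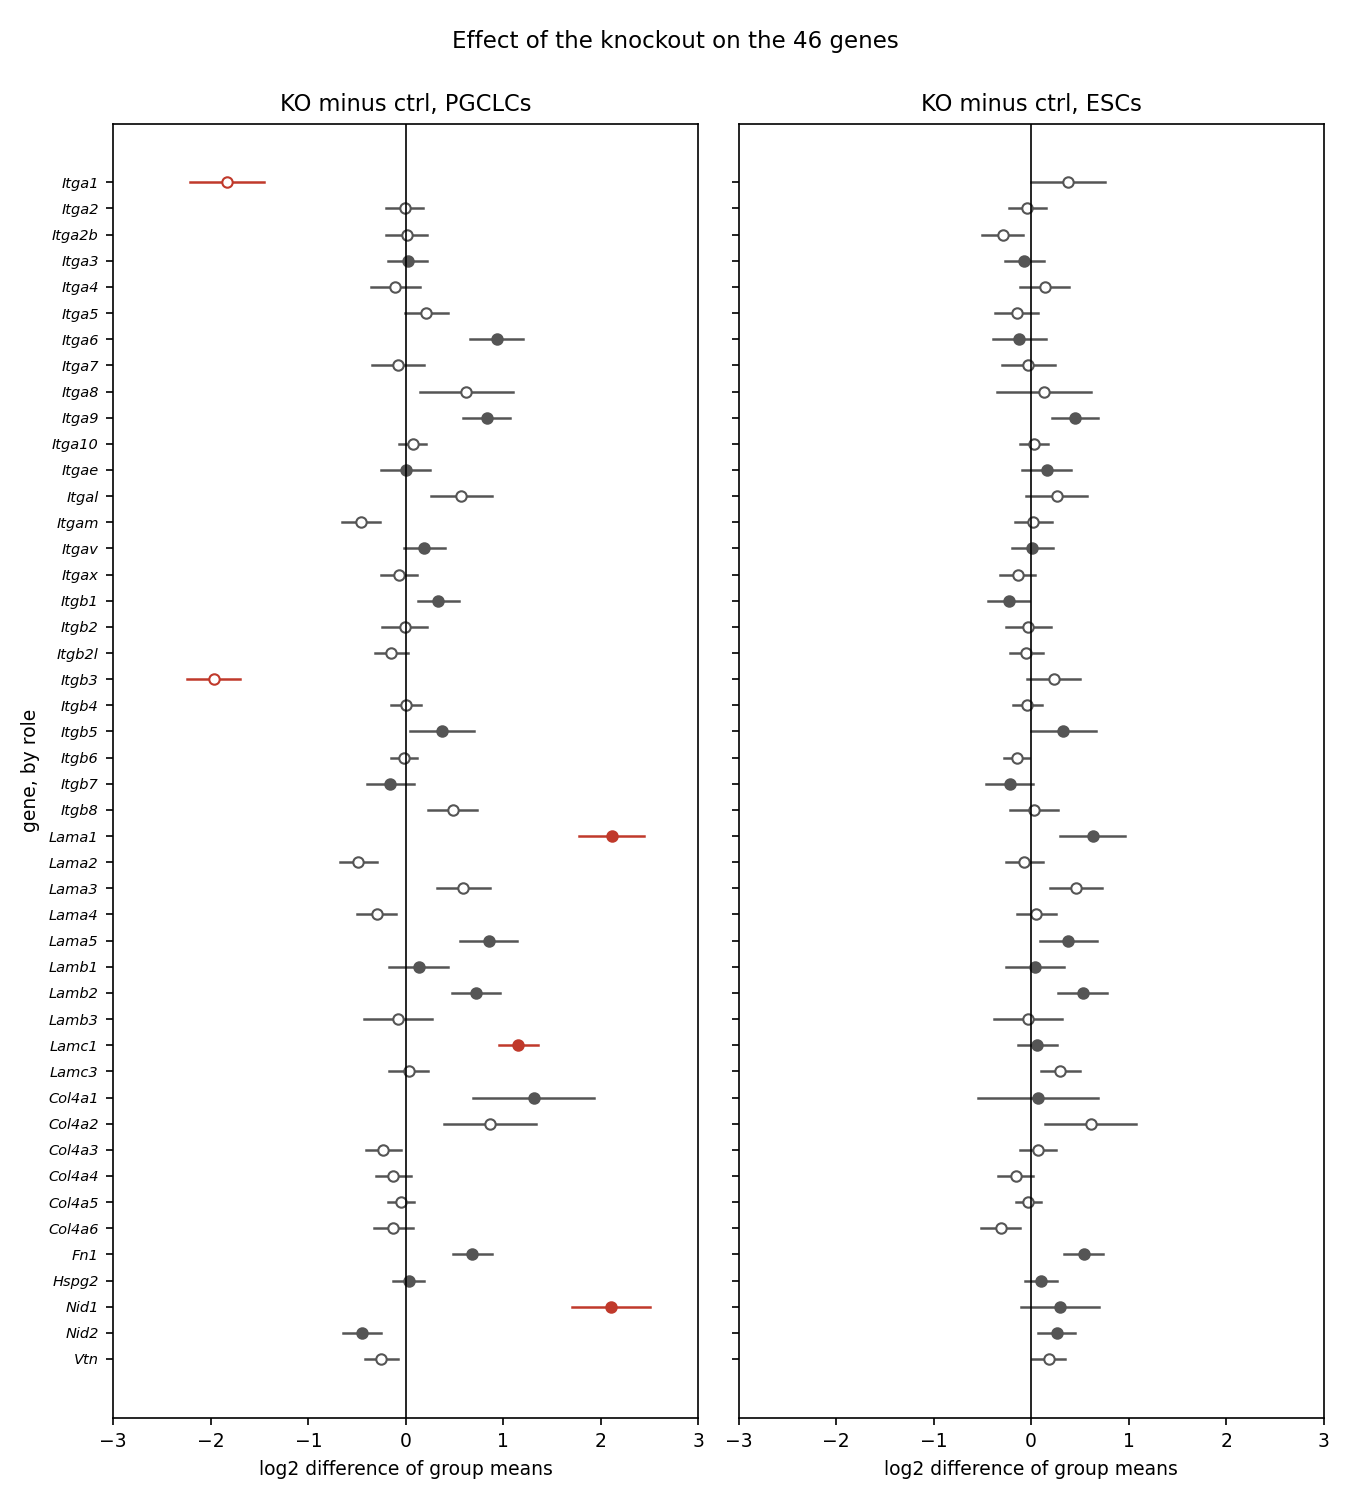
Log2 difference of group means, Tfap2c-/- (KO) minus ctrl, with SE, for the 46 genes by role in PGCLCs (left) and ESCs (right); red marks an adjusted p under 0.05 and open circles mark dim genes. The 5 calls in PGCLCs range from -1.97 to 2.11, and in ESCs all differences lie between -0.31 and 0.63.

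**Figure D4:**
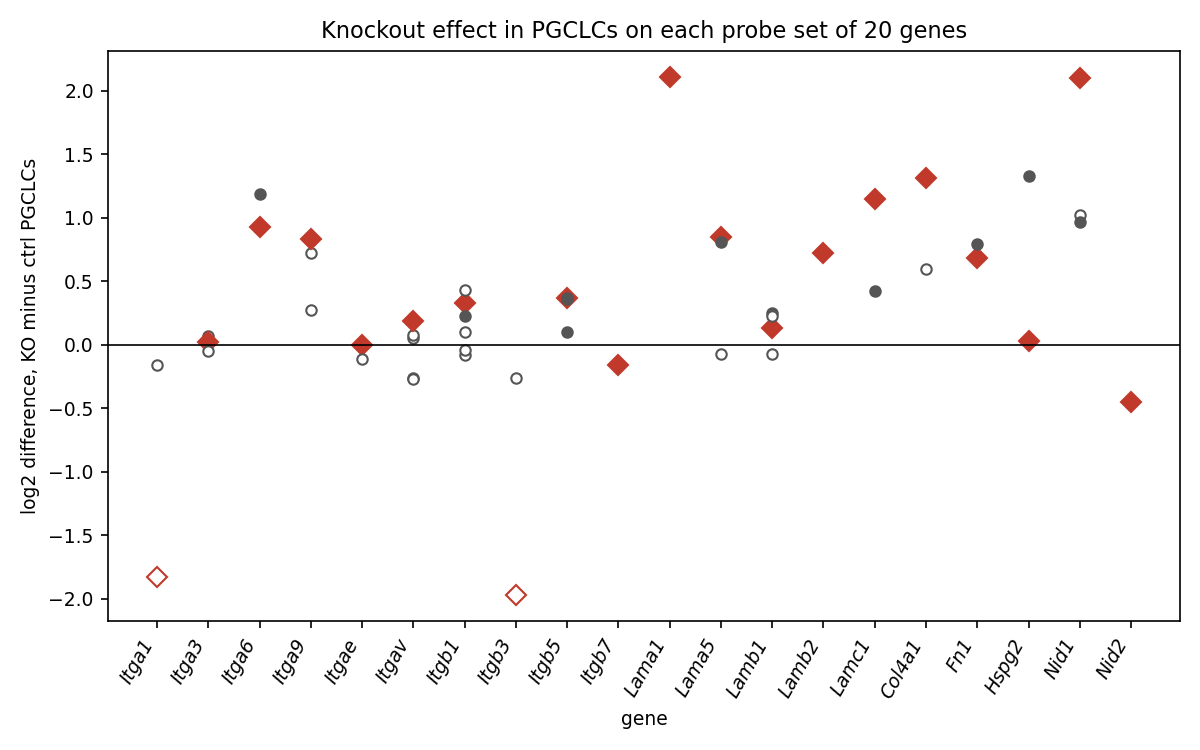
Log2 difference between Tfap2c-/- (KO) and ctrl PGCLCs on every probe set of the 18 genes above 5 and of Itga1 and Itgb3 (red diamonds: the probe set used; grey circles: other probe sets; open symbols: dim). The probe sets of Nid1, Lamc1 and Itga6 share a direction, whereas those of Hspg2 differ, at 0.03 and 1.33.

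These calls depended on the arrays. Without the second ctrl PGCLC array, whose control probe sets stood apart, 0 of the 46 genes and 0.478% of all genes were called; the differences then were 1.75 for Lama1 (adjusted p = 0.135), 1.00 for Lamc1 (0.198), 1.40 for Nid1 (0.0914), -1.59 for Itgb3 (0.0657) and -1.23 for Itga1 (0.175). Without the first or the second Tfap2c-/- PGCLC array, none of the 46 was called either, with 1.26% and 0.539% of all genes called, and the lowest adjusted p among the 5 genes was 0.0513 (Lamc1, difference 1.35) and 0.059 (Itgb3, difference -2.18). Leaving out the first ctrl PGCLC array gave 5 of the 46 and 2.17% of all genes, with Itga6 (difference 1.39, adjusted p = 0.0154) in place of Lamc1 (1.29, adjusted p = 0.0556). The ESC arrays enter this comparison only through the shared estimate of the spread. Without either ctrl ESC array 2 genes were called, Itgb3 and Lama1 (2.04% and 2.01% of all genes), and without either Tfap2c-/- ESC array 4 were (3.35% and 3.31% of all genes), with Fn1 in place of Itga1 and Nid1.

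Some genes listed as markers of other cell types also differed between the PGCLC groups. The parietal endoderm is a rich source of laminin and type IV collagen, and 5 of its 6 markers were dim. Their summed linear level was 48.7 to 54.3 in Tfap2c-/- PGCLCs against 93.4 to 105 in ctrl PGCLCs. Pth1r, at 2.67 and 2.53 in Tfap2c-/- PGCLCs against 5.47 and 5.32 in ctrl PGCLCs, and Thbd, at 3.82 and 3.58 against 4.66 and 4.74, were called lower. The others, Gata4, Plat, Snai1 and Sox7, were dim and overlapped between the groups, so the lower sum came from Pth1r and Thbd. Of 7 endothelial and blood markers 6 were dim, 1 was called lower and 0 higher. Pecam1 read 4.22 and 4.32 in Tfap2c-/- PGCLCs against 5.90 and 5.65 in ctrl PGCLCs. It also read 4.85 and 5.25 in Tfap2c-/- ESCs and 5.09 and 5.44 in ctrl ESCs, so here it did not mark endothelium or blood alone. Tek, one of the dim markers, went the other way, at 5.02 and 4.65 against 3.58 and 2.88. The 4 epiblast markers, 2 of them dim, summed to 906 to 953 in Tfap2c-/- PGCLCs against 366 to 407 in ctrl PGCLCs. Most of that sum was Dnmt3b, at 9.53 and 9.27 against 8.28 and 7.88, which the paper names as a direct TFAP2C target. Otx2 and Pou3f1 were higher on both Tfap2c-/- arrays too, while the groups overlapped in Fgf5. ESC markers summed to 8960 to 10500 in Tfap2c-/- PGCLCs against 7820 to 8360 in ctrl PGCLCs. The part of these markers in the matrix values was not tested.

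Between Tfap2c-/- and ctrl ESCs none of the 46 genes, and none of the 18193 genes, was called by limma. At an unadjusted p under 0.05 there was 1 of the 46 genes, against 2.5% of all genes, and 0 of the 46 and 0.132% of all differed by more than 1.5. The groups did not overlap in 8 of the 46 with Tfap2c-/- ESCs higher, against 11.8% of all genes, and in 3 with them lower, against 11% of all. The gene under that unadjusted p was Fn1, at 10.15 and 10.76 in Tfap2c-/- ESCs against 9.99 and 9.86 in ctrl ESCs (difference 0.54, SE 0.20, limma adjusted p = 1). Of the genes called in PGCLCs, Lama1 read 7.11 and 7.54 in Tfap2c-/- ESCs against 7.08 and 6.31 in ctrl ESCs (difference 0.63, SE 0.33). Nid1 read 8.74 and 8.71 against 8.66 and 8.19, and Lamc1 6.98 and 7.10 against 7.10 and 6.86. Itga1 (3.14 and 2.83 against 2.33 and 2.89) and Itgb3 (2.60 and 2.37 against 2.41 and 2.10) were dim on all ESC arrays.

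Whether the deletion acted differently in PGCLCs and ESCs was tested directly. None of the 46 genes passed limma's test of that difference between differences, which called 0.148% of all genes (0.033% higher and 0.115% lower). At an unadjusted p under 0.05 there were 7 of the 46, against 9.01% of all genes, and 3 of the 46 were beyond 1.5, against 1.71% of all. The largest were -2.20 for Itga1 (SE 0.53, adjusted p = 0.246), -2.19 for Itgb3 (SE 0.38, adjusted p = 0.112) and 1.79 for Nid1 (SE 0.57, adjusted p = 0.389). Without the first ctrl PGCLC array, these were -2.57 for Itgb3 and 2.49 for Nid1. The ctrl PGCLC group was then the second array alone, whose control probe sets stood apart.

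From ESC to PGCLC, ctrl cells changed 5 of the 46 genes. The integrin subunits Itga1, Itgb3 and Itgb5 were higher in ctrl PGCLCs than in ctrl ESCs, and Lama1 and Nid1 were lower. Among all genes 8.37% were called, 4.64% higher and 3.72% lower. At an unadjusted p under 0.05 there were 10 of the 46, against 23.4% of all genes, and 5 of the 46 differed by more than 1.5, against 3.49% of all. The groups did not overlap in 13 of the 46 with ctrl PGCLCs higher (25.3% of all genes) and in 14 with them lower (28.5% of all). The comparison shares its ctrl PGCLC arrays with the knockout comparison in PGCLCs, so the values of a gene in both are not independent.

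Lama1 read 4.24 and 3.53 in ctrl PGCLCs against 7.08 and 6.31 in ctrl ESCs. The difference of -2.81 (SE 0.33, limma adjusted p = 0.00402) was the largest of the 46 genes here. Nid1 read 7.04 and 5.65 against 8.66 and 8.19, a difference of -2.08 (SE 0.40, limma adjusted p = 0.0224). In neither gene did the groups overlap. Lamc1 differed by -0.59 (SE 0.20, limma adjusted p = 0.122) and Lamb1, the third chain of the trimer, by 0.51 (SE 0.30, limma adjusted p = 0.368). The other probe set of Lamc1, not dim, differed by -1.18. Between Tfap2c-/- PGCLCs and Tfap2c-/- ESCs the Lamc1 probe sets disagreed, at 0.5 on the one used and -1 on the other.

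Itgb3 read 4.21 and 4.96 in ctrl PGCLCs against 2.41 and 2.10 in ctrl ESCs, a difference of 2.33 (SE 0.27, limma adjusted p = 0.00402). Itga1 read 4.22 and 5.42 against 2.33 and 2.89, a difference of 2.21 (SE 0.38, limma adjusted p = 0.0148). Both genes were dim in every group, the ctrl PGCLCs included. Their other probe sets, also dim, differed by -0.06 for Itgb3 and 0.31 for Itga1. Itgb5, the β5 subunit, which pairs with αv to bind vitronectin, read 8.08 and 7.50 in ctrl PGCLCs against 5.33 and 6.16 in ctrl ESCs. The difference was 2.05 (SE 0.33, limma adjusted p = 0.0127), or 4.13-fold, and the other 3 probe sets of Itgb5 differed by 1.26 to 1.38. Its partner Itgav read 9.11 and 8.57 against 8.14 and 8.37, a difference of 0.59 (SE 0.21, limma adjusted p = 0.135). Itga6 differed by -0.90 (SE 0.27, limma adjusted p = 0.0836).

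These calls also depended on single arrays. Without the first ctrl ESC array 2 of the 46 genes were called, Itgb3 (2.49, adjusted p = 0.0312) and Lama1, and Itga1 (1.93, adjusted p = 0.0997), Itgb5 (1.63, adjusted p = 0.0752) and Nid1 (-1.85, adjusted p = 0.13) were not, while 1.79% of all genes were called, against 8.37% with all arrays. That share was 2.87% without the second ctrl ESC array, 3.59% without the first ctrl PGCLC array and 2.14% without the second. Nid1 was also lost without the second ctrl ESC array (-2.31, adjusted p = 0.0731), and Itgb5 without the first ctrl PGCLC array (1.75, adjusted p = 0.0708).

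In Tfap2c-/- cells the step from ESC to PGCLC changed 1 of the 46 genes, against 2.32% of all genes (1.35% higher and 0.973% lower). At an unadjusted p under 0.05 there were 10 of the 46, against 18.5% of all genes, and 2 differed by more than 1.5, against 2.18% of all. The groups did not overlap in 10 of the 46 with Tfap2c-/- PGCLCs higher (18.5% of all genes) and in 8 with them lower (29.5% of all). The called gene was Itgb5, at 7.99 and 8.33 in Tfap2c-/- PGCLCs against 5.81 and 6.33 in Tfap2c-/- ESCs (difference 2.08, SE 0.33, limma adjusted p = 0.0281). The test of whether the step differed between Tfap2c-/- and ctrl cells gave 0.04 for Itgb5 (SE 0.47, limma adjusted p = 0.993). Leaving out any of the 4 arrays compared ended the call, at differences of 1.82 to 2.35 and adjusted p of 0.0593 to 0.124. The genes that differed between ctrl PGCLCs and ctrl ESCs otherwise gave, in this comparison, 0.01 for Itga1 (SE 0.38), 0.14 for Itgb3 (SE 0.27), -0.28 for Nid1 (SE 0.40) and -1.33 for Lama1 (SE 0.33, limma adjusted p = 0.0868). The Lama1 level of Tfap2c-/- PGCLCs lay between those of the ESC arrays and the ctrl PGCLC arrays. Col4a1 read 6.63 and 5.38 in Tfap2c-/- PGCLCs against 3.11 and 3.67 in Tfap2c-/- ESCs, the largest difference of the 46 genes here at 2.61 (SE 0.62), and was not called (limma adjusted p = 0.0776), except when the first or the second ctrl PGCLC array was left out of the fit (adjusted p = 0.043 and 0.0433).

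Genes that act next to integrins and laminins were examined as 5 lists. Over all genes 1.29% were called higher and 1.8% lower in Tfap2c-/- than in ctrl PGCLCs, 4.64% and 3.72% in ctrl PGCLCs than in ctrl ESCs, and 1.35% and 0.973% in Tfap2c-/- PGCLCs than in Tfap2c-/- ESCs. Of 19 measured genes of the integrin adhesion complex, 1 was higher and 2 were lower in Tfap2c-/- PGCLCs than in ctrl PGCLCs. Fermt3, the kindlin known from blood cells, read 3.74 and 2.64 in Tfap2c-/- PGCLCs against 6.60 and 6.31 in ctrl PGCLCs, a difference of -3.26 (SE 0.49, limma adjusted p = 0.0169). The probe sets of Fermt3 disagreed: the other 3, all dim, differed by -1.97, -0.68 and 0.07. The widely expressed kindlin Fermt2 differed by 0.34 and was not called. Tln2, a talin, read 5.49 and 5.53 against 6.32 and 6.32 (difference -0.81, limma adjusted p = 0.0453), with 0.12 and 0.13 on its other, dim probe sets. Parvb, β-parvin, which binds integrin-linked kinase, read 5.99 and 6.30 against 4.99 and 3.69 (difference 1.80, limma adjusted p = 0.0497), with -0.12 on its dim probe set. In ctrl PGCLCs against ctrl ESCs, 2 genes were higher and 1 was lower. These were the adaptor Bcar1 (1.05), the actin crosslinker Actn4 (0.70) and Parvb (-1.96). Bcar1 (1.70) and Actn4 (0.89) were also higher in Tfap2c-/- PGCLCs than in Tfap2c-/- ESCs.

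Of 14 other laminin receptors and membrane adaptors, 2 were higher and none was lower in Tfap2c-/- PGCLCs. Dmd, dystrophin, which ties the laminin receptor dystroglycan to actin, read 8.00 and 8.35 in Tfap2c-/- PGCLCs against 6.79 and 6.62 in ctrl PGCLCs (difference 1.47, SE 0.23, limma adjusted p = 0.0192). Cd81, a tetraspanin that associates with integrins, read 9.93 and 10.14 against 9.13 and 8.15 (difference 1.40, SE 0.27, limma adjusted p = 0.0393). In ctrl PGCLCs against ctrl ESCs, 1 of the 14 was higher and 4 were lower. The largest of these were -1.88 for the heparan sulphate proteoglycan Sdc2 and -1.71 for Dmd. The tetraspanins Cd81 (-1.31) and Cd9 (-1.12) were lower too, and Utrn, the dystrophin relative utrophin, was higher by 0.56. Dag1, dystroglycan itself, was not called in either comparison (-0.33 and 0.42).

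Of 20 further basement membrane and matrix genes, 2 were higher and 1 was lower in Tfap2c-/- PGCLCs. Npnt, nephronectin, a ligand of the integrin that Itga8 encodes a subunit of, read 3.94 and 2.87 in Tfap2c-/- PGCLCs against 5.12 and 6.17 in ctrl PGCLCs (difference -2.24, SE 0.42, limma adjusted p = 0.0356). The groups did not overlap, and a second probe set above 5 differed by -2.06, while the other 3, all dim, differed by -0.18, -0.19 and -0.34. The call of Npnt was lost with the mean of all probe sets (difference -1.0, adjusted p = 0.11) and without probe sets ending in _x_at, _s_at or _a_at (-2.06, adjusted p = 0.132). Itga8 was dim in all groups and read 4.54 and 3.12 against 3.73 and 2.69. Ntn1, netrin 1, read 7.62 and 7.46 in Tfap2c-/- PGCLCs against 6.56 and 6.61 in ctrl PGCLCs (difference 0.96, limma adjusted p = 0.0314), and Fbln1, fibulin 1, differed by 0.83 (limma adjusted p = 0.0356). In ctrl PGCLCs against ctrl ESCs, 4 of the 20 were higher and 2 lower, led by Npnt (3.12), the collagen IV crosslinking peroxidasin Pxdn (2.76), Ntn1 (-1.70) and Frem2 (1.68). Pxdn also differed between Tfap2c-/- PGCLCs and Tfap2c-/- ESCs, by 3.16 (limma adjusted p = 0.0475).

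Of 15 genes for folding and crosslinking of collagen and matrix, none was called in Tfap2c-/- against ctrl PGCLCs. The widest differences were 0.86 for the lysyl hydroxylase Plod1 (limma adjusted p = 0.0661) and 0.78 for the collagen chaperone Serpinh1 (limma adjusted p = 0.128). Mia3, which loads large cargo into secretory vesicles, was higher in ctrl PGCLCs than in ctrl ESCs by 1.07. That call was lost with the mean of all probe sets (difference 0.56, limma adjusted p = 0.08). It was also lost without probe sets ending in _x_at, _s_at or _a_at (0.32, limma adjusted p = 0.518). Of 12 matrix proteases and inhibitors, 1 was lower in Tfap2c-/- PGCLCs. This was Adam19, a membrane protease, at 8.45 and 8.98 in Tfap2c-/- PGCLCs against 9.73 and 9.89 in ctrl PGCLCs (difference -1.10, SE 0.19, limma adjusted p = 0.0269), with -1.03 on its other probe set. In ctrl PGCLCs against ctrl ESCs, the gelatinase Mmp9 (1.68) and Adam19 (1.34) were higher and the inhibitor Timp1 (-1.05) was lower. The medians of the 5 lists in Tfap2c-/- against ctrl PGCLCs were 0.23, 0.06, 0.05, 0.06 and 0.48 in the order given, beside -0.04 over all genes. With the mean of all probe sets, 1 of the 9 list genes called in that comparison, Fermt3, was still called. Without the second ctrl PGCLC array none of the 9 list genes called in that comparison remained so. Their differences then ran between -3.40 for Fermt3 (adjusted p = 0.111) and 1.38 for Dmd (adjusted p = 0.155), with the lowest adjusted p at 0.0675 for Cd81. Without the first ctrl PGCLC array 3 of the 9 were called (Cd81, Npnt, Parvb), without the first Tfap2c-/- PGCLC array 2 (Fermt3, Npnt), without the second 1 (Adam19), and without either ctrl ESC array 2 (Dmd, Fermt3). Of the 18 list genes called in ctrl PGCLCs against ctrl ESCs, 7 to 18 were called with one array left out, and of the 6 in Tfap2c-/- PGCLCs against Tfap2c-/- ESCs, 1 to 5. The mean of all probe sets kept 14 of the 18 calls in ctrl PGCLCs against ctrl ESCs, losing Mia3, Utrn, Mmp9 and Adam19. It kept 4 of the 6 in Tfap2c-/- PGCLCs against Tfap2c-/- ESCs, losing Pxdn and Mmp9. In ESCs no gene of the 5 lists was called.

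**Figure D5:**
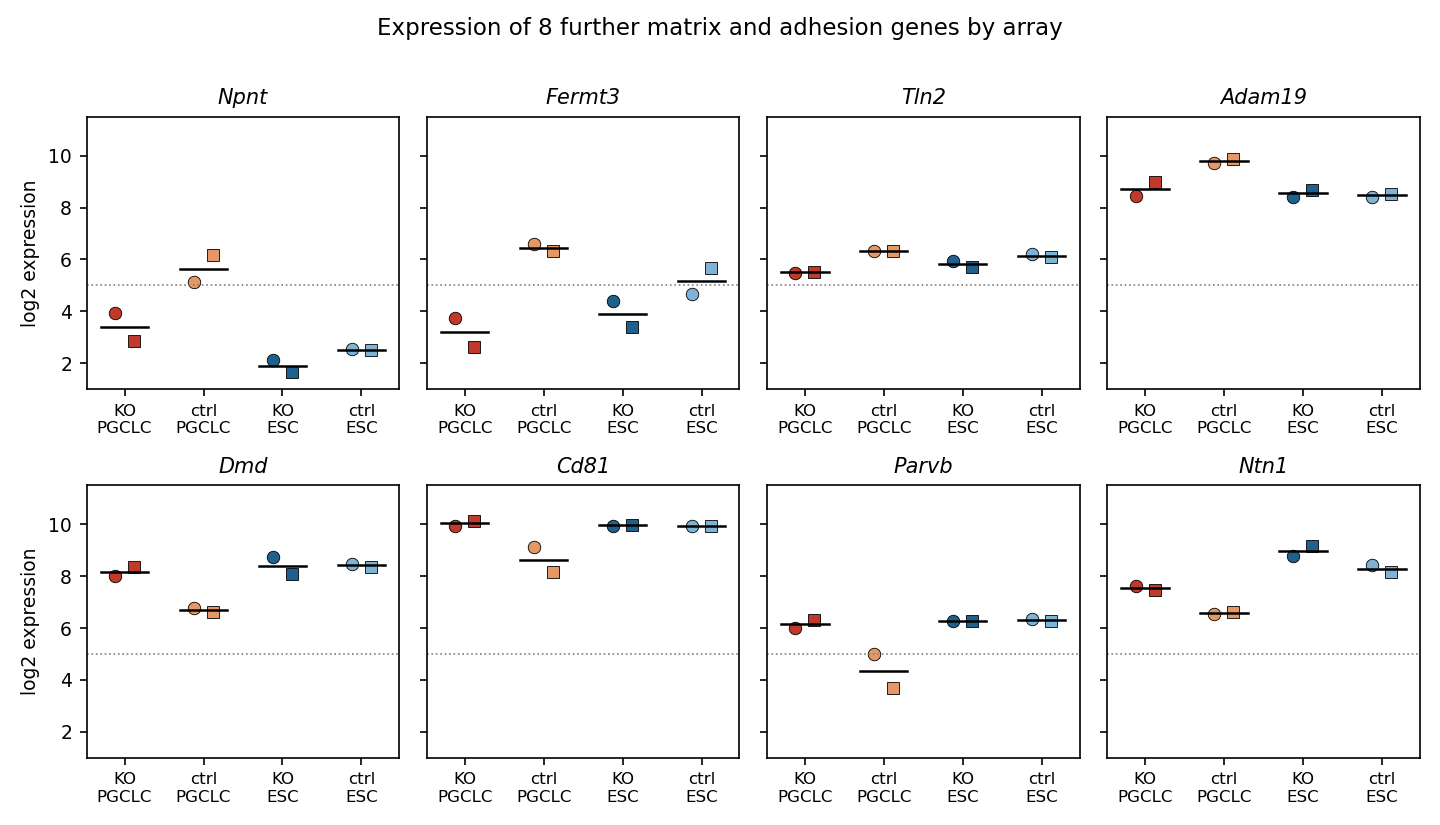
Log2 expression of 8 matrix and adhesion genes on each array by group (circles: replicate 1; squares: replicate 2; bars: group means; dotted line: the level of 5; KO is Tfap2c-/-). Npnt, Fermt3, Tln2 and Adam19 are lower in Tfap2c-/- than in ctrl PGCLCs, and Dmd, Cd81, Parvb and Ntn1 are higher.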

How the data were processed

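The files held log2 expression values from Affymetrix mouse arrays, 8 arrays in 4 groups of 2. The authors made the deposited log2 values by normalizing the scanned arrays: RMA is named in the study's methods and GCRMA in the processing notes of the submitters, and these differ in background correction, which mainly moves dim probe sets. The depth of an array has no count, and the number of arrays limits the precision. Probe sets were named by the platform annotation: 34945 of 45101 name 1 gene, 932 several and 9160 were not listed, besides 64 control probe sets. The probe set with the highest mean stood for each of 18193 genes.

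Group means were fitted over all 8 arrays with limma 3.58.1 in R 4.3.3 (lmFit, eBayes with a trend, 4 residual and 3.67 prior degrees of freedom), two-sided, with Benjamini-Hochberg adjustment over all genes. The fit was run on simulated independent normal values, to check the direction and mean size of planted differences. Such data hold no line effects or outlying arrays, so the run does not test for these. The study itself called genes by a mean difference above 1.5 on the log2 scale with no test, which was run as an alternative beside others for probe sets, dim genes, scaling, variance, block and arrays left out. Named were the members past the test, their partners, members differing by over 1.5 and dim members, and from each list up to 4 genes past the test with the largest change or, with none, 2. Fn1, Itga6, Itga9, Lama5, Lamb2, Hspg2, Nid2, Fermt2, Dag1 and the markers were named after their values were seen. The members and lists were chosen with earlier results of these data known. Promoter windows came from RefSeq (GRCm38.p6). Figures were drawn with Matplotlib 3.10.9.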

Additional observations from a re-analysis of the deposited data

How the results depend on the processing

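The counts of called genes among the 46 moved with the arrays. Leaving out each array in turn gave 0 to 5 calls in Tfap2c-/- against ctrl PGCLCs (5 with all arrays), 2 to 6 in ctrl PGCLCs against ctrl ESCs (5), 0 to 2 in Tfap2c-/- PGCLCs against Tfap2c-/- ESCs (1), 0 to 2 for the difference between the knockout effects (0) and 0 throughout for Tfap2c-/- against ctrl ESCs. Where a group kept 1 array, that array was assumed to vary like the other groups. Fitting only the 4 arrays compared gave 0 calls in Tfap2c-/- against ctrl PGCLCs, with 1.03% of all genes called. It gave 3 in ctrl PGCLCs against ctrl ESCs (6.51% of all) and 0 in Tfap2c-/- PGCLCs against Tfap2c-/- ESCs (0.308% of all). These fits had fewer residual degrees of freedom by construction. The difference between the effects needs all arrays and could not be fitted so. The mean of all probe sets gave 3 calls in Tfap2c-/- against ctrl PGCLCs, with 2.35% of all genes called. Keeping genes above 5 on 2 arrays left 16 of the 46, without Itga1 and Itgb3. It gave 3 calls in Tfap2c-/- against ctrl PGCLCs and 3 in ctrl PGCLCs against ctrl ESCs. Of all 9228 genes kept, 7.48% and 19.4% were called in these comparisons. Without probe sets ending in _x_at, _s_at or _a_at, 0 calls were left in Tfap2c-/- PGCLCs against Tfap2c-/- ESCs (Itgb5, 1.12, limma adjusted p = 0.0639). In that setting 2.2% of all genes were called. Fermt3 in Tfap2c-/- against ctrl PGCLCs then turned to 0.07, read from its dimmest probe set. The rule of 1.5 on the log2 scale gave 3 genes for the difference between the effects and 2 in Tfap2c-/- PGCLCs against Tfap2c-/- ESCs. Quantile normalization turned the split of 3 higher and 2 lower in Tfap2c-/- against ctrl PGCLCs to 3 higher and 1 lower, with 3.39% of all genes called.

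Itgb3 and Lama1 in ctrl PGCLCs against ctrl ESCs stayed called under all alternatives that tested them, 14 for Itgb3 and 15 for Lama1. Itgb3 was dim in every group, and its other probe set alone differed by -0.06 there. In Tfap2c-/- against ctrl PGCLCs, Lama1 kept its call under 11 of 15, Itgb3 under 10 of 14, Lamc1 and Nid1 under 7 of 15 and Itga1 under 3 of 14. The correlation of the deviations of same-numbered arrays was 0.392 between Tfap2c-/- and ctrl PGCLCs, 0.26 between Tfap2c-/- PGCLCs and Tfap2c-/- ESCs, 0.174 between ctrl PGCLCs and Tfap2c-/- ESCs, and -0.333 to 0.0658 in the pairs with ctrl ESCs. The labels do not tie the numbers to a line and not every pair of groups deviated together, so the numbers were not taken as pairs. With the replicate block, the counts were 5 in Tfap2c-/- against ctrl PGCLCs, 0 in Tfap2c-/- against ctrl ESCs, 0 for the difference between the effects, 5 in ctrl PGCLCs against ctrl ESCs and 1 in Tfap2c-/- PGCLCs against Tfap2c-/- ESCs, the same as without it. Of all genes 3.06%, 0%, 0.121%, 8.64% and 2.5% were called with the block, in that order. Col4a1 (1.31, adjusted p = 0.313) and Col4a2 (0.86, adjusted p = 0.122) were not called in Tfap2c-/- against ctrl PGCLCs with the block either. Of the list genes, Tln2 (adjusted p = 0.0613), Parvb (0.0525) and Fbln1 (0.0522) in Tfap2c-/- against ctrl PGCLCs and Utrn (0.0519) in ctrl PGCLCs against ctrl ESCs were not called with the block, and the others were. Since the ESC pair was negative, a block with crossed ctrl ESC numbers was added after seeing the data and gave 5, 0, 0, 7 and 4 calls in that order, with 5.01%, 0%, 0.231%, 12.4% and 5.1% of all genes called against 3.09%, 0%, 0.148%, 8.37% and 2.32% without a block.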
